A study of Mus musculus with 8 samples.

Results

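Fc receptors bind the constant part of antibodies. The genes described here are the 4 mouse Fc gamma receptors (Fcgr1, Fcgr2b, Fcgr3 and Fcgr4), 3 Fc receptor-like genes (Fcrls, Fcrl1 and Fcrl5) and Fcgrt, which encodes the neonatal Fc receptor. They are 8 of the genes measured by 24111 transcript clusters, the units to which the array sums its probes. Each gene was taken by its symbol in the platform annotation, where a cluster had to carry that symbol alone, and a symbol with several clusters was to be chosen by the highest mean over the 8 arrays. Each of the 8 genes had 1 cluster, so the mean level excluded none. The set was proposed with earlier results of these arrays known: Fcrls had been selected on its differences between DC101 and placebo in both compartments, and the difference of Fcgr1 in the peritoneum was known. For these 2 genes the values of DC101 and placebo are therefore given as a description without a test, and tests of that comparison cover the other 6.

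Mast cells (MC) came from C57BL/6J mice that carried Panc02 tumors, a mouse pancreatic cancer line, under the skin of the flanks. At a tumor volume of 100 mm3 the mice were assigned at random to placebo or to 40 mg/kg of DC101, an antibody against the VEGF receptor VEGFR2. MC were sorted by flow cytometry from end-stage tumors and from peritoneal lavage, with a stain for DNA (DAPI) and for CD45, CD11b, CD117 and the IgE receptor, and their RNA was hybridized to Affymetrix mouse gene arrays. The 4 groups were tumor with placebo, tumor with DC101, peritoneum with placebo and peritoneum with DC101, with 2 arrays each. Every group bore tumors, so no group came from tumor-free mice, and the animals behind an array, their age and their number were not given in the sources used here. The p-values therefore reflect only how far arrays of 1 group lay apart, a spread that may be technical. Values are log2 expression values after RMA, and the array medians lay between 3.34 and 3.46. A value near or below the median cluster (3.48 over all arrays) cannot be separated from background, and levels of different genes are not on 1 scale.

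The classical Fc gamma receptors link IgG to cells. Fcgr1 (CD64) binds monomeric IgG with high affinity, Fcgr3 (CD16) and Fcgr4 bind IgG in complexes, and these 3 signal through the common γ chain, the product of Fcer1g, which is also part of the IgE receptor of MC. Fcgr2b (CD32) carries an inhibitory motif in its own tail and dampens signals of the IgE receptor and of the B cell receptor. Fcgrt pairs with β2-microglobulin (B2m) inside cells and returns IgG and albumin to the surface, and Fcrl1 and Fcrl5 are mostly known from B cells. Fcrls encodes a protein with immunoglobulin and scavenger receptor domains and is known as a marker of mouse microglia and some macrophages.

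Because these genes are also used by macrophages and B cells, the sorted cells were first checked against cell type markers. Kit (CD117) lay between 8.96 and 10.20 on the log2 scale and the mast cell protease gene Cpa3 between 11.13 and 11.72 over all arrays, and the linear values of 12 MC markers summed to 13.37 to 13.86 (log2) in tumor placebo, 13.48 to 13.82 in tumor DC101, 13.62 to 13.76 in peritoneal placebo and 13.38 to 13.51 in peritoneal DC101. Such a sum follows its brightest genes. With DC101 in peritoneal MC, the differences of 2 of the 12 MC markers were above 0, with a list median of −0.23. Of the 12, limma called 1 lower, Tph1 (−1.67, limma adjusted p = 0.035), where 2.1% of all clusters were lower, and 11 did not pass. In tumor MC 7 of the 12 were above 0 and limma called 0. The sum of 13 macrophage markers was 10.66 to 10.95 in tumor placebo and 10.26 to 10.51 in tumor DC101. In the peritoneum it was 12.08 to 12.19 with placebo and 13.28 to 13.73 with DC101. The sum of 5 B cell markers was 5.30 to 5.91 and 5.17 to 5.50 in the tumor groups, against 11.55 to 11.57 in peritoneal placebo and 10.29 to 10.83 in peritoneal DC101. Eosinophil markers summed to 6.72 to 6.73 and 8.81 to 9.40 in these 2 peritoneal groups, and T and NK cell markers to 10.35 to 10.49 and 8.96 to 9.20. In the tumor groups, T and NK cell markers summed to 7.95 to 9.20 with placebo and 8.44 to 8.70 with DC101. Neutrophil markers summed there to 10.47 to 10.98 and 10.61 to 11.42, and eosinophil markers to 4.83 to 5.18 and 4.90 to 5.23. Markers of other cell types were thus present in the arrays of both compartments, but not of every type. In the tumor arrays the mean log2 values of the B cell markers (2.75 to 3.43) and of the eosinophil markers (2.21 to 2.55) lay below the median cluster. Their sums there cannot be separated from background. In the peritoneal arrays the sums given here differed between treatments. In the tumor arrays the macrophage sums lay apart, while the B cell, T and NK cell, neutrophil and eosinophil sums overlapped. The sums of 4 monocyte markers (9.78 to 9.82 with placebo and 10.09 to 10.34 with DC101) also lay apart there. So did those of 3 basophil markers (8.02 to 8.69 and 8.80 to 9.55) and of 3 mesothelial markers (7.93 to 8.09 and 7.79 to 7.82). In sorted pools, fewer cells of a type and less RNA per cell cannot be told apart.

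**Figure D1:**
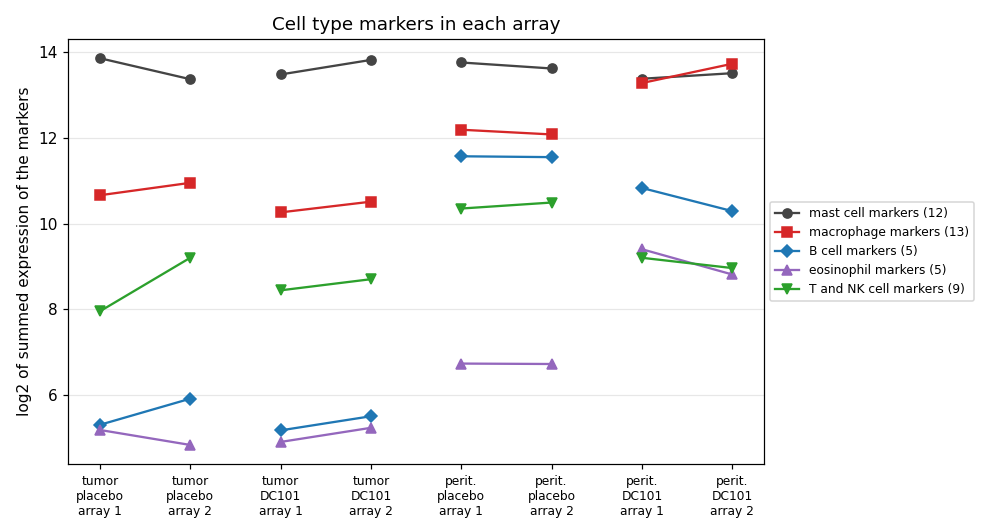
Log2 of the summed linear expression (y axis) of 5 marker lists in each of the 8 arrays (x axis), with the number of genes per list in the legend and lines joining the 2 arrays of a group. The macrophage sum was 12.08 to 12.19 in peritoneal placebo and 13.28 to 13.73 in peritoneal DC101, while the B cell sum was at most 5.91 in the tumor arrays; lists hold different probes, so their heights are not comparable.

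Across the 4 groups, the 8 genes did not share 1 order. Fcgr1 was lowest with DC101 in the peritoneum, Fcgrt and Fcrls were highest there, Fcgr2b, Fcgr3 and Fcgr4 were higher in both peritoneal groups than in both tumor groups, and Fcrl1 and Fcrl5 were highest in peritoneal placebo. The plot of all array values shows these patterns.

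**Figure D2:**
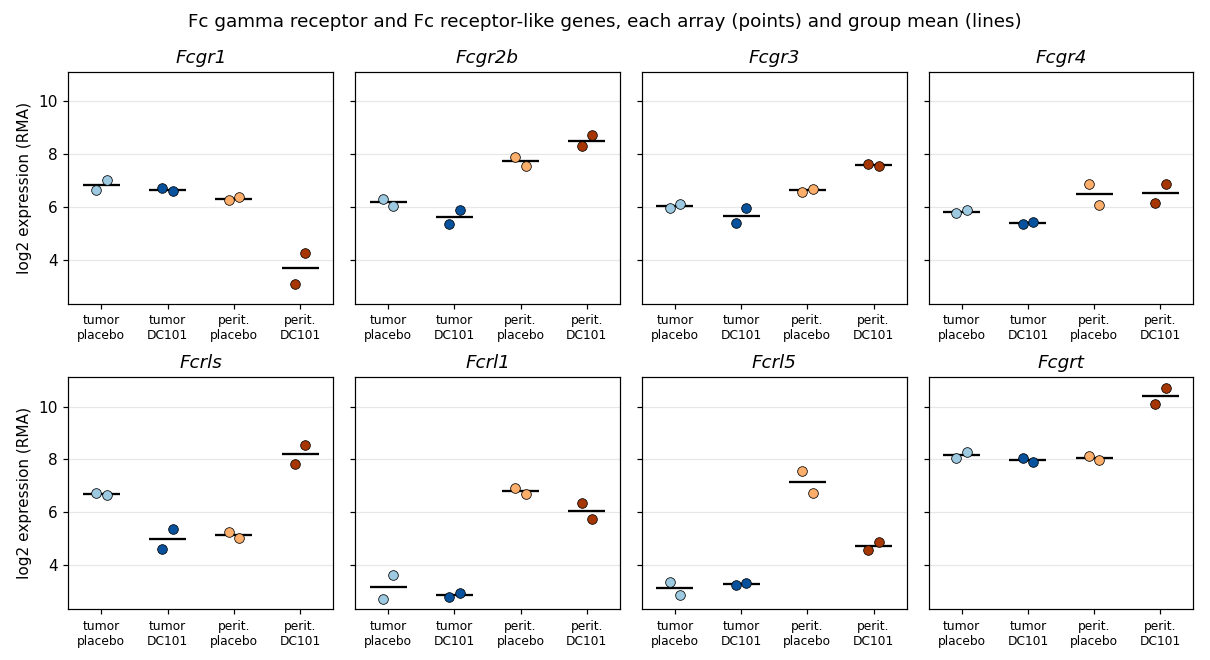
Log2 expression (RMA, y axis) of each gene in the 4 groups (x axis), with a point for each of the 2 arrays and a line at the group mean. Fcgr1 lay at 3.08 and 4.26 with DC101 in the peritoneum and at 6.27 or above elsewhere, and Fcgrt at 10.11 and 10.72 there and at 8.27 or below elsewhere.

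Among the activating receptors, Fcgr1 measured 6.63 and 7.00 in tumor placebo, 6.70 and 6.61 in tumor DC101, 6.27 and 6.36 in peritoneal placebo, and 3.08 and 4.26 in peritoneal DC101. Both peritoneal DC101 arrays were far below the other 6, and both peritoneal placebo arrays were below the tumor arrays, whose groups overlapped. The group means were 6.81 ± 0.27 (SD, n = 2), 6.66 ± 0.06, 6.31 ± 0.06 and 3.67 ± 0.83 in that order. In tumor MC the log2 difference between DC101 and placebo was −0.16 (SE 0.34). In peritoneal MC it was −2.64 (SE 0.34), or 6.24-fold. The peritoneal DC101 mean lay close to the median cluster, so the size of this difference is uncertain. In the same comparison 4 monocyte markers summed to 10.71 to 10.72 with placebo and 9.64 to 10.09 with DC101. All 4 were lower and limma called 0 of them, with 3 at an unadjusted p under 0.05. The 13 macrophage markers summed to 12.08 to 12.19 with placebo and 13.28 to 13.73 with DC101. Of their differences 10 were above 0, and limma called 5 higher and 1 lower, where 2.48% of all clusters were higher and 2.1% lower. The part of either list in the values of Fcgr1 was not tested.

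Fcgr3, whose product carries IgG complexes to the γ chain, measured 5.96 and 6.11 in tumor placebo, 5.38 and 5.95 in tumor DC101, 6.57 and 6.68 in peritoneal placebo, and 7.61 and 7.56 in peritoneal DC101. No 2 neighbouring groups overlapped, in the order peritoneal DC101, peritoneal placebo, tumor placebo and tumor DC101, and the last 2 were separated by only 0.01. In peritoneal MC, the difference between DC101 and placebo was 0.96 (SE 0.23, limma adjusted p = 0.051), which did not pass. It did under 4 alternatives (limma adjusted p from 0.028 with an intensity trend in the prior to 0.05 after rounding), and over all alternatives adjusted p reached 0.16. In tumor MC the difference was −0.37 (SE 0.23, limma adjusted p = 1.0).

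Fcgr4, which neighbours Fcgr3 in the genome and also signals through the γ chain, measured 5.75 and 5.88 in tumor placebo, 5.33 and 5.42 in tumor DC101, 6.86 and 6.08 in peritoneal placebo, and 6.14 and 6.88 in peritoneal DC101. The 2 peritoneal groups overlapped and spread widely, with SDs of 0.55 and 0.52 (n = 2 each). The difference between DC101 and placebo was 0.04 in peritoneal MC, with a 95% interval from −0.67 to 0.75, so these arrays do not exclude a change within that interval in either direction. In tumor MC it was −0.44 (95% interval −1.15 to 0.27).

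The inhibitory receptor gene Fcgr2b measured 6.30 and 6.03 in tumor placebo, 5.36 and 5.87 in tumor DC101, 7.88 and 7.56 in peritoneal placebo, and 8.29 and 8.71 in peritoneal DC101. The groups followed the same order as for Fcgr3, and none overlapped. The differences between DC101 and placebo, 0.78 (SE 0.26, limma adjusted p = 0.13) in peritoneal MC and −0.55 (SE 0.26, limma adjusted p = 1.0) in tumor MC, did not pass. Within an array, the log2 value of Fcgr2b minus that of Fcgr3 ranged from −0.08 to 0.34 over the 4 tumor arrays and from 0.68 to 1.31 over the 4 peritoneal arrays. The treatment groups overlapped in the peritoneum. Mouse Fcgr2b and Fcgr3 are closely alike in the part that encodes their extracellular domains, so probes can read both and their separate values are uncertain.

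Fcgrt, the gene of the neonatal Fc receptor, rose with DC101 in peritoneal MC. It measured 8.07 and 8.27 in tumor placebo, 8.04 and 7.91 in tumor DC101, 8.11 and 7.99 in peritoneal placebo, and 10.11 and 10.72 in peritoneal DC101. Peritoneal placebo overlapped both tumor groups, and both peritoneal DC101 arrays stood above all others. The rise was 2.36 (SE 0.24, 95% interval 1.82 to 2.90, limma adjusted p = 0.002), or 5.13-fold. In tumor MC the difference was −0.19 (SE 0.24, limma adjusted p = 1.0). Its light chain gene B2m lay between 11.27 and 11.59 in all arrays and differed by 0.08 (95% interval −0.33 to 0.50, limma adjusted p = 0.87) in peritoneal MC.

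Fcrls measured 6.73 and 6.63 in tumor placebo, 4.61 and 5.37 in tumor DC101, 5.25 and 5.03 in peritoneal placebo, and 7.83 and 8.55 in peritoneal DC101. Both tumor arrays with DC101 lay below both with placebo, and in the peritoneum the reverse held, while tumor DC101 and peritoneal placebo overlapped. The differences that led to the selection of this gene were, in tumor MC, −1.69 (SE 0.31), or 3.24-fold lower with DC101, and, in peritoneal MC, 3.05 (SE 0.31), or 8.27-fold higher. The summed macrophage markers moved in the same directions, lower by less than 1 log2 unit in the tumor and higher in the peritoneum. Such a sum follows its brightest genes, and single markers went both ways. In tumor MC 4 of the 13 differences were above 0, among them Timd4 (1.18, limma adjusted p = 0.78) and Vsig4 (0.40, limma adjusted p = 1.0), and limma called 0 of the 13, with 5 at an unadjusted p under 0.05. In peritoneal MC 5 rose, led by Lyve1 (4.71) and Folr2 (4.38), Marco fell (−3.53), and 7 did not pass. Of all clusters, 2.48% rose and 2.1% fell there. The markers' part in the values of Fcrls, Fcgr1, Fcgr2b, Fcgr3 and Fcgrt was not tested.

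The B cell gene Fcrl5 fell with DC101 in peritoneal MC. It measured 3.34 and 2.87 in tumor placebo, 3.25 and 3.30 in tumor DC101, 7.56 and 6.71 in peritoneal placebo, and 4.56 and 4.85 in peritoneal DC101. The tumor groups overlapped below the median cluster, and both peritoneal DC101 arrays lay between them and peritoneal placebo. The fall was −2.43 (SE 0.30, limma adjusted p = 0.0042), or 5.40-fold. Its neighbour Fcrl1 measured 2.72 and 3.60 in tumor placebo, 2.77 and 2.94 in tumor DC101, 6.93 and 6.70 in peritoneal placebo, and 6.34 and 5.72 in peritoneal DC101. The peritoneal groups did not overlap, but the difference of −0.79 (SE 0.32, limma adjusted p = 0.22) did not pass. Of 5 B cell markers, 2 fell in the same comparison (Cd22, −1.76, limma adjusted p = 0.0083, and Blk, −2.03, limma adjusted p = 0.016), where 2.1% of all clusters fell. The list median was −0.96, and the part of these markers in the values of Fcrl5 and Fcrl1 was not tested.

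The genes lie in 4 places. By the positions of RefSeq genes on GRCm38.p6, Fcgr2b, Fcgr4 and Fcgr3 follow each other on chromosome 1, Fcrls, Fcrl1 and Fcrl5 lie together on chromosome 3 with Cd5l between Fcrls and Fcrl1, Fcgr1 lies elsewhere on chromosome 3, and Fcgrt lies on chromosome 7. The 250 bases before the start of the 8 genes were searched on both strands for TTCNNNGAA, the site of STAT factors induced by interferon gamma (GAS), for GAGGAA, the core of sites of the myeloid and B cell factor PU.1, and for the interferon-stimulated response element (ISRE, GAAA, any pair of bases, GAAA). TTCNNNGAA was present in 1 of the 8, Fcgr1, and in 7.02% of 32851 promoter windows of that length. GAGGAA was present in 5 of the 8 (Fcgr1, Fcgr3, Fcgr4, Fcrls and Fcrl1) and in 23.3% of windows, and ISRE in 1 of the 8, Fcgr4, and in 2.98% of windows. No matches of different motifs overlapped in these 8 windows, and a match of letters does not show that a factor was bound. RefSeq also holds longer gene models that cover 241 bases of the window of Fcrls, all 250 of that of Fcgr3, 34 of that of Fcrl1 and 5 of that of Fcrl5. The windows of the member that was lowest with DC101 in peritoneal MC (Fcgr1), of the one that rose most among those tested (Fcgrt) and of one that did not differ detectably (Fcgr4) are shown from RefSeq, build GRCm38.p6, 5′ to 3′ on the strand of the gene, with motif matches in capitals. They are chr3:96293970-96294219 (minus strand), chr7:45103823-45104072 (minus strand) and chr1:171018676-171018925 (plus strand).
Fcgr1: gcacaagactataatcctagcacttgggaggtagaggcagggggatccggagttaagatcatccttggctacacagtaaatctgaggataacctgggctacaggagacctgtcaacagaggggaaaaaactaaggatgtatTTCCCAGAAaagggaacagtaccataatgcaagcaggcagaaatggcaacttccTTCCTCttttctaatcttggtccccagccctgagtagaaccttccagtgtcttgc
Fcgrt: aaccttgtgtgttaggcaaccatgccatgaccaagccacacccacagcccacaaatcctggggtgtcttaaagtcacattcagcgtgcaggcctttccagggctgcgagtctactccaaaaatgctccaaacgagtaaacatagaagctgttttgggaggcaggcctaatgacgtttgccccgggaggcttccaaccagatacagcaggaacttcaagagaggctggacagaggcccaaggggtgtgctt
Fcgr4: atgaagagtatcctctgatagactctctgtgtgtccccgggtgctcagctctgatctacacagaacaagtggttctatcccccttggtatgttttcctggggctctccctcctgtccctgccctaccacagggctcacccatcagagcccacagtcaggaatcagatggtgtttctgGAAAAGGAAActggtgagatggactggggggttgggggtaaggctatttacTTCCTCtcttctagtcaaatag
In Fcgr1 the capitals are TTCCCAGAA, which begins 109 bases before the start, and TTCCTC, the reverse complement of the PU.1 core, which begins 55 bases before it. In Fcgr4 they are an ISRE that begins 73 bases before the start and TTCCTC at 22 bases, and Fcgrt has none of the 3 motifs in this window.

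Counted together for DC101 against placebo in peritoneal MC, 2 of the 6 tested genes were called by limma at adjusted p under 0.05, where 4.58% of all clusters were. Fcgrt was the 1 that rose, where 2.48% of all clusters rose, and Fcrl5 the 1 that fell, where 2.1% fell. The other 4 were not called, and without limma's moderation Fcgrt and Fcrl5 missed the threshold as well (adjusted p of 0.071 and 0.098). The arrays of both peritoneal groups were apart for 5 of these 6 genes (3 higher and 2 lower with DC101), where 46% of all clusters were apart in either direction. Their median difference was 0.41, and that of all clusters −0.022.

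In tumor MC, 0 of the 6 tested genes were called by limma and 0 had an unadjusted p under 0.05, as against 0 called and 1215 at an unadjusted p under 0.05 among all clusters (0% called). At the thresholds of the study, an unadjusted p under 0.05 and a log2 difference of at least 1 in size, 0 of the 6 passed, where 0.68% of all clusters did. The tumor arrays with DC101 lay apart from those with placebo for 4 of the 6 genes, each time lower, where 36.3% of all clusters were apart in either direction. These were Fcgr2b, Fcgr3, Fcgr4 and Fcgrt. The median difference of the 6 genes was −0.34, and that of all clusters −0.029.

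**Figure D3:**
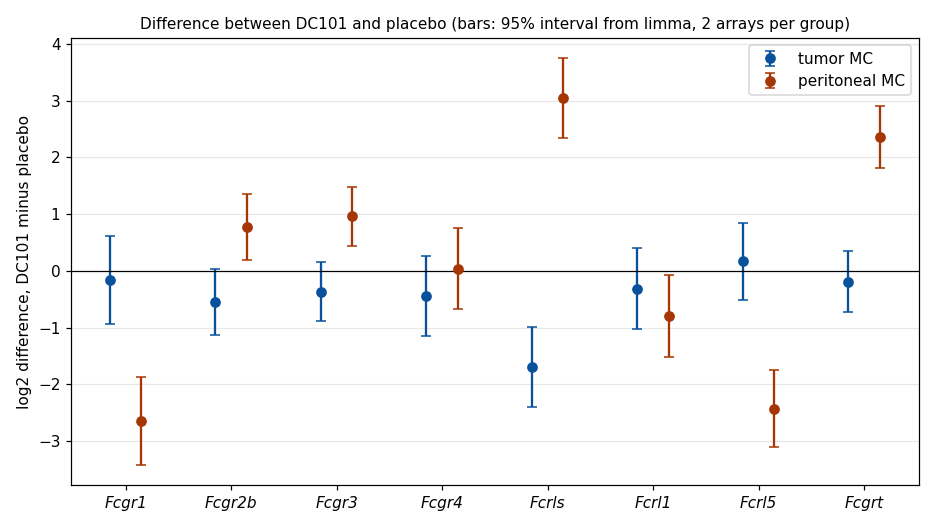
Log2 difference between DC101 and placebo (y axis) for each gene (x axis) in tumor and in peritoneal MC, with 95% intervals from limma (2 arrays per group). In peritoneal MC the differences ran from −2.64 for Fcgr1 to 3.05 for Fcrls, and in tumor MC only the interval of Fcrls, which was selected on this difference, lay away from 0.

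Whether the response to DC101 differed between the compartments was tested as the tumor difference minus the peritoneal difference. Of the 6 tested genes, limma called 2, against 0.805% of all clusters. The responses of Fcgrt differed by −2.55 (SE 0.34, limma adjusted p = 0.018) and those of Fcrl5 by 2.60 (SE 0.42, limma adjusted p = 0.037). For Fcgr2b and Fcgr3, each lower in tumor MC and higher in peritoneal MC with DC101, the differences of −1.33 (SE 0.36, limma adjusted p = 0.15) and −1.33 (SE 0.32, limma adjusted p = 0.11) did not pass. Leaving out replicate 2 of peritoneal placebo kept only the call of Fcrl5 (limma adjusted p = 0.04), leaving out replicate 1 or 2 of peritoneal DC101 kept only that of Fcgrt (0.011 and 0.027), and leaving out any other array kept neither (0.056 to 0.15). Without limma's moderation neither passed (adjusted p of 0.19 and 0.25).

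Tumor and peritoneal MC were compared over the mean of both treatments. As an estimate this mean is independent of the DC101 differences within a compartment, so all 8 genes were tested. It uses the same arrays and the same estimate of spread, however. For Fcrls and Fcgr1, whose DC101 differences were known beforehand, the test is thus not fully independent of that knowledge. All 8 were called, against 29.5% of all clusters. Without limma's moderation 6 were, and Fcgr4 (adjusted p = 0.1) and Fcrls (adjusted p = 0.11) were not. Only Fcgr1 was higher in tumor MC (16.3% of all clusters were), by 1.74 (SE 0.24, limma adjusted p = 0.00057). This mean joins 0.50 in the placebo groups (95% interval −0.28 to 1.28) and 2.98 in the DC101 groups, where the peritoneal arrays (3.08 and 4.26) were near background. The other 7 were lower in tumor MC (13.2% of all clusters were), from −3.42 (SE 0.22) for Fcrl1, −2.73 (SE 0.21) for Fcrl5 and −2.22 (SE 0.18) for Fcgr2b to −0.83 (SE 0.22, limma adjusted p = 0.019) for Fcrls. For Fcrls this mean joins opposite values, 1.54 in the placebo groups and −3.20 in the DC101 groups, and its call was lost without any 1 of tumor placebo replicate 2 (adjusted p = 0.056), tumor DC101 replicate 1 (0.071), peritoneal placebo replicate 1 (0.06) or peritoneal DC101 replicate 2 (0.057) by limma. The 13 macrophage and the 5 B cell markers were likewise all lower in tumor MC, with list medians of −3.06 and −5.90, and their part in these differences was not tested.

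With placebo alone, 3 of the 6 tested genes were called, where 19.6% of all clusters were, and each was lower in tumor MC, where 8.29% were. These were Fcrl5 (−4.03, SE 0.30, limma adjusted p = 2.6e-05), Fcrl1 (−3.66, SE 0.32, limma adjusted p = 6.3e-05) and Fcgr2b (−1.55, SE 0.26, limma adjusted p = 0.0026). The tumor values of Fcrl5 and Fcrl1 were below or near the median cluster, so these sizes are uncertain. Fcgrt differed by 0.12 (95% interval −0.42 to 0.66), Fcgr3 by −0.59 (limma adjusted p = 0.11) and Fcgr4 by −0.65 (limma adjusted p = 0.2). The DC101 groups differed by −2.44 for Fcgrt, −1.92 for Fcgr3 and −1.13 for Fcgr4.

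**Figure D4:**
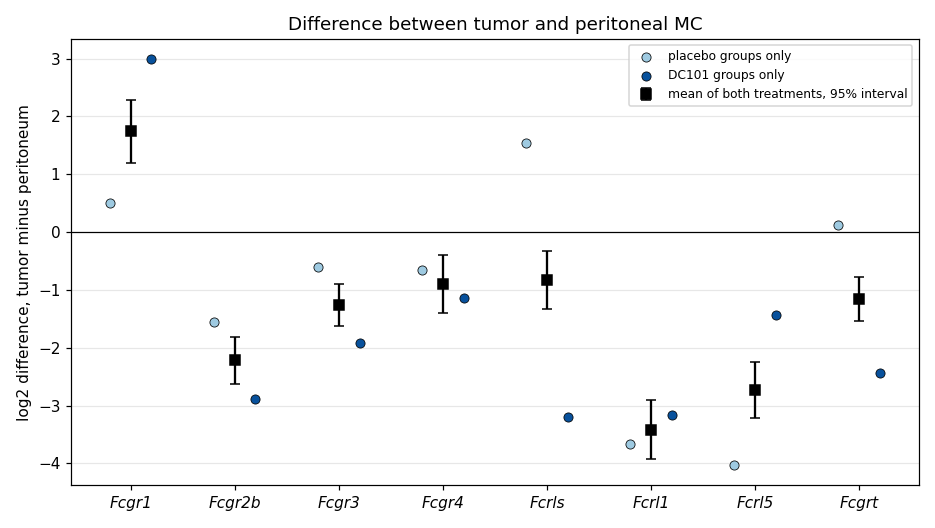
Log2 difference between tumor and peritoneal MC (y axis) for each gene (x axis), as the mean of both treatments with its 95% interval from limma and as the difference of the group means with placebo and with DC101 alone. The values of Fcrls were 1.54 with placebo and −3.20 with DC101, and those of Fcgr1 0.50 and 2.98.

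Genes around the receptors were described from lists. The common γ chain gene Fcer1g lay between 10.62 and 11.27 in all arrays and differed between DC101 and placebo by 0.23 (95% interval −0.21 to 0.67) in peritoneal MC and by −0.01 (95% interval −0.45 to 0.43) in tumor MC. Of the listed IgG heavy chain genes, only Ighg3 had a cluster of its own symbol. It fell with DC101 in peritoneal MC by 2.20 on the log2 scale (limma adjusted p = 0.018). Of 9 other immunoglobulin receptors, 2 fell in that comparison, the IgM receptor gene Fcmr (−2.12, limma adjusted p = 0.0055) and the B cell gene Fcrla (−1.24, limma adjusted p = 0.021), and 7 did not pass, among them the IgE receptor chain gene Fcer1a (−0.12, 95% interval −0.64 to 0.40). The list median was −0.16, and 2.1% of all clusters fell in that comparison.

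Downstream of the receptors, 1 of 14 activating signaling genes fell with DC101 in peritoneal MC, the adaptor gene Lat (−2.22, limma adjusted p = 0.0096), 13 did not pass, and the list median was −0.13. Of 8 inhibitory signaling genes, which include Inpp5d and Ptpn6, the phosphatases that inhibitory receptors recruit, limma called 0, and 2 had an unadjusted p under 0.05. Of 7 measured targets of interferon gamma, a cytokine known to induce Fcgr1, 2 fell, Cxcl9 (−2.11, limma adjusted p = 0.012) and Irf8 (−1.81, limma adjusted p = 0.023), with a list median of −0.29. The other 5 did not pass, 2 of the 7 differences were above 0, and 2.1% of all clusters fell. A part of interferon gamma in the values of Fcgr1 was not tested. Of 8 measured genes known beside Fcrls in microglia, limma called 0, and 2 had an unadjusted p under 0.05. In tumor MC, limma called 0 genes of these lists, and those at an unadjusted p under 0.05 were 3 of the microglial list. The ADP receptor gene P2ry12 (−1.24, SE 0.31) and P2ry13 (−1.19, SE 0.44) were lower, and Siglech (0.66, SE 0.23) was higher. Of the 8 microglial differences there, 3 were above 0, with a list median of −0.15.

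Between the compartments, over both treatments, 7 of the 14 activating signaling genes were lower and 2 higher in tumor MC, where 13.2% of all clusters were lower and 16.3% higher. The kinase genes Fgr (−3.01) and Syk (−2.66) were lower and Lat (2.29) was higher, with limma adjusted p of 8.8e-05 or less. Of the 8 inhibitory genes, 3 were lower (Ptpn6, −1.92, Csk, −1.32, and Dok2, −0.93) and 1 was higher (Dok1, 0.70). Of the 7 interferon gamma targets, 5 were higher in tumor MC (16.3% of all clusters were), led by Cxcl10 (4.97) and Cxcl9 (3.71), and 2 were lower (13.2% of all clusters were), Ciita (−2.55) and Irf8 (−1.86). The peritoneal values of Cxcl10, 3.06 to 3.51, were near background, so the size of its difference is uncertain. Fcer1g and B2m were not called. With placebo alone, 6 of the 14 activating signaling genes were lower and 0 higher in tumor MC. Of all clusters, 8.29% were lower and 19.6% were called in either direction. The 2 genes that were higher over both treatments, Lat and Plcg1, then differed by 0.99 and 0.32 (limma adjusted p = 0.072 and 0.41).

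The genes whose values ran most closely with each member over the 8 arrays are given by Pearson's r, as a description in which arrays of 1 group are not independent. They were Tlr8, Cd84 and Man2b1 for Fcgr2b (0.992 to 0.993), Armc7, Kat6a and Atg7 for Fcgr3 (0.987 to 0.990), and Itpkb, C330018D20Rik and Impact for Fcgr4 (0.981 to 0.989). For Fcgr1 they were Lig1, Sap30 and Rpl7a (0.990 to 0.994), for Fcgrt Timp2, Chp2 and Tslp (0.987 to 0.992), and for Fcrl1 Zfp329, Gata6 and C87436 (0.995 to 0.996). For Fcrl5 they were Gne, Pik3r4 and Kmt2a (0.981 to 0.985), and for Fcrls Edem1, Rnf145 and Rnpepl1 (0.957 to 0.959). Among 10926 candidates, 51 had an r above 0.9 with Fcrls and 849 with Fcgr2b, so the pattern of Fcrls was shared by fewer genes. Among the members, r was 0.95 between Fcgr2b and Fcgr3, 0.88 between Fcrls and Fcgrt, 0.88 between Fcrl1 and Fcrl5, and −0.91 between Fcgr1 and Fcgrt.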

How the data were processed

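Total RNA of sorted MC was hybridized, with 1 label, to Affymetrix Mouse Gene 2.1 arrays. Per the submitters' processing notes, the authors summarized the images by RMA, and they deposited 1 log2 value per cluster and array. The methods name R and Bioconductor, and for the version of RMA and the genome build the entry is: not given in the sources used here. Quantile normalization removes changes that all genes share, and RMA gives no detection call. Symbols came from the platform annotation (21508 clusters with 1 symbol, 566 with several, 2037 with none), and all 8 members matched the RefSeq table by gene identifier.

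Groups and replicate numbers came from the sample labels, and all 8 columns were used. With limma 3.58.1 in R 4.3.3, 1 mean per group was fitted to all 8 arrays (4 residual and 4.93 prior degrees of freedom), and p-values were Benjamini-Hochberg adjusted over all 24111 clusters. Each contrast was called at adjusted p under 0.05. The functions were tested on simulated data. Arrays have no depth, so the 2 arrays per group limit precision.

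Named genes are the 8 members, the 3 genes with the highest r for each member with an SD of at least 0.5, and called genes of the lists. The text names part of the last. Members and lists were chosen with earlier results of these data known. Alternatives were other priors, no moderation, array weights, cyclic loess, other cluster sets, each compartment alone, a replicate block, and leaving out each array. Listed genes without a cluster of their symbol alone were not analysed here. Figures were drawn with matplotlib 3.10.9.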

Additional observations from a re-analysis of the deposited data

Results flagged for a closer look

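The difference between the responses to DC101 in tumor and peritoneal MC passed the test for 2 of the 6 tested members. Among all clusters 0.805% passed. Without limma's moderation 0 of the 6 passed, and leaving out single arrays changed these calls. Fcrls moved in opposite directions without a test. For Fcgrt the tumor minus the peritoneal log2 difference was −2.55 (limma adjusted p = 0.018), with −0.19 in tumor MC and 2.36 in peritoneal MC. For Fcrl5 it was 2.60 (limma adjusted p = 0.037), with 0.17 in tumor MC and −2.43 in peritoneal MC. For Fcrls both tumor arrays with DC101 lay below those with placebo and both peritoneal arrays above, a difference of −4.74 that was not tested because the gene was selected on it. Arrays of Fcgr2b and Fcgr3 also lay apart in opposite directions, but their differences of −1.33 each did not pass (limma adjusted p = 0.15 and 0.11), and the difference of 2.48 for Fcgr1 was not tested. In the same arrays, 5 of 13 macrophage markers rose and 1 fell and 2 of 5 B cell markers fell with DC101 in peritoneal MC, where 2.48% of all clusters rose and 2.1% fell. The part of these markers in the values of the members was not tested. With 2 arrays per group, no group was large enough to look for single outlying arrays.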

How the results depend on the processing

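Under 18 alternatives, 76 of the counts of called members stayed within 1.5 times their value and 11 moved, and of the single differences 24 lost their call, 4 gained one, 6 turned sign, 12 without a test moved by over 1 SD and 650 kept their direction and side of the threshold (or moved by less than 1 SD where they had no test). Without moderation (33 clusters called instead of 1105 for DC101 in peritoneal MC, 0 instead of 194 for the difference between compartments, 2716 instead of 4723 between compartments with placebo), the called members were 0 of 6 for DC101 in peritoneal MC and 0 of 6 for the difference between compartments, against 2 each. With 1 array left out, that difference had 0 to 1 called member, 0 without either array of tumor placebo, either of tumor DC101 or replicate 1 of peritoneal placebo. A group left with 1 array was then assumed to vary like the others, and 311 to 715 clusters were called in the first of these tests where a count moved by over 1.5 times. Fitting each compartment alone gave 453 there, and a prior with an intensity trend gave 463 in the second and leaving out dim clusters 346. Leaving out 1 array gave as few as 22 there, and leaving out replicate 2 of tumor placebo gave 3069 between compartments with placebo and 2 instead of 0 for DC101 in tumor MC. The replicate block left 1 (Fcrl5 at adjusted p = 0.052) and 113 clusters instead of 194 in that test, and changed no other member's call. Same-numbered arrays are not stated to be paired, and the correlation of their deviations was −0.16 between the tumor groups and −0.024 to 0.017 otherwise. With the tumor DC101 numbers crossed, an alternative chosen after seeing the data, 145 clusters were called. Signs turned for small differences: Fcgrt between compartments with placebo (−0.02 with cyclic loess), and, with DC101, without replicate 2 of tumor placebo Fcgr1 (0.03), Fcrl1 (0.13) and Fcrl5 (−0.06) in tumor MC, and Fcgr4 in peritoneal MC without replicate 2 of placebo (−0.35) or of DC101 (−0.33). With 1 array left out, these ranged from −0.35 to 0.03 for Fcgr1, −0.75 to 0.13 for Fcrl1, −0.06 to 0.41 for Fcrl5 and −0.35 to 0.43 for Fcgr4. The cause was not tested. Without 1 of the 4 arrays of DC101, the described differences of Fcrls were −1.32 or −2.07 in tumor MC and 3.41 or 2.69 in peritoneal MC, and that of Fcgr1 in peritoneal MC was −2.05 or −3.23. Each member had 1 cluster, so averaging clusters gave no alternative.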
